A study of Mus musculus with 8 samples.

Results

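This section describes 657 of the 12359 SMC1 peaks of resting mouse cortical neurons, those at the ends of noncoding genes (5.32% of the list, exact 95% interval 4.93 to 5.73%). A peak was taken when its midpoint lay within 1 kb of either end of a non-protein-coding RefSeq gene on GRCm38.p6, transfer RNA genes excepted, and more than 1 kb from every end of a protein-coding gene. A further 407 resting peaks lay within 1 kb of both kinds of end and were left out by that rule. Of the 657 peaks, 6 also lay within 1 kb of a transfer RNA gene end, which the rule does not exclude. The 657 peaks lay nearest to 642 different noncoding genes, and 30 of them had more than 1 noncoding gene within reach. The rule uses neither peak strength nor overlap with peaks found after NMDA, but it was chosen with earlier results of these data known.

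SMC1 was mapped by chromatin immunoprecipitation and sequencing (ChIP-seq) in primary neurons from the cortex of wild-type Swiss-Webster embryos (E16), grown to day 13 in vitro. Resting cultures carry the treatment label None. In the other cultures, NMDA, an agonist of a class of glutamate receptors, was given at 50 µM during 10 min and followed by 50 min without the drug. Each condition had 2 ChIP samples and 2 input samples, all of the same genotype. The deposited file for a condition is 1 list of peaks that joins its ChIP replicates. No expression was measured, so the neuronal label could not be checked against marker genes, and the depth of the libraries is unknown from the lists. Peak strength is the authors' −log10 p of the peak caller summed over both replicates, and it is compared within a list only. The replicate columns carry no sample numbers and are called the first and the second column here.

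SMC1 is a core subunit of cohesin, the ring complex that extrudes loops of chromatin and is often halted where the insulator protein CTCF is bound. Cohesin is also found at active promoters and enhancers. Long noncoding RNA (lncRNA) genes frequently start beside the promoters of regulatory genes or inside enhancers. The start of a noncoding gene is therefore one of the places where a cohesin site far from any coding promoter can still sit on a transcribed promoter.

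To show what lies under these peaks, promoter windows of 300 bases that fell wholly inside a resting peak are printed for 5 noncoding genes, read from RefSeq (GRCm38.p6) on the strand of the gene, from 250 bases before to 50 bases after its start. Gm26802 and Gm32255 are shown because their peaks lay near or inside the activity-induced genes Fosb and Egr2. The Gm26802 peak lay 1.85 kb from the nearest end of Fosb, and which end this is was not examined. The other 3 are shown because they hold the CTCF core motif. Capitals mark the CTCF core motif and, in Tbx3os2, also the AP-1 motif.
Gm26802, chr7:19300744-19301043, minus strand: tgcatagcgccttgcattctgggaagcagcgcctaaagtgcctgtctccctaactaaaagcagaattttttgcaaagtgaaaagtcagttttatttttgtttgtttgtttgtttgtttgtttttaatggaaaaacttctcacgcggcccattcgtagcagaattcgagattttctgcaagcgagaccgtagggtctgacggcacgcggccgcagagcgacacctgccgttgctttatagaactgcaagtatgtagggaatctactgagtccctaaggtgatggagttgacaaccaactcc
Gm32255, chr10:67536131-67536430, minus strand: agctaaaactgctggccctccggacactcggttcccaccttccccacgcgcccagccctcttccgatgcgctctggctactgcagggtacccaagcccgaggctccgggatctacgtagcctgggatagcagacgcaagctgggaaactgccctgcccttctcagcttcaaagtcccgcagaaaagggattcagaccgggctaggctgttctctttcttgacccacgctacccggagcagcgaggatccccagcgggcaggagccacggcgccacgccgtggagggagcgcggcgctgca
Gm30771, chr7:38061030-38061329, plus strand: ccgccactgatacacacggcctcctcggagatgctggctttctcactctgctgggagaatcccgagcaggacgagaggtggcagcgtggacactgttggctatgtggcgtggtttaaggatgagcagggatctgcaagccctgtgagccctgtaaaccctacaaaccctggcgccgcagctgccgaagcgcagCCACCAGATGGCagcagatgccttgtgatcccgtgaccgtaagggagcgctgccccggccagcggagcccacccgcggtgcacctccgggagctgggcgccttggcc
Tbx3os2, chr5:119691169-119691468, minus strand: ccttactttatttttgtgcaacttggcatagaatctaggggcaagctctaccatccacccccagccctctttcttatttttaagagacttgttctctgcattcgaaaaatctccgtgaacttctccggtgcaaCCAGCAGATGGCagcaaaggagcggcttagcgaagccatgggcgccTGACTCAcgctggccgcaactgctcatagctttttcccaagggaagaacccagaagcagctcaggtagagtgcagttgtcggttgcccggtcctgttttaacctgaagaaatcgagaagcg
Chrna1os, chr2:73584610-73584909, plus strand: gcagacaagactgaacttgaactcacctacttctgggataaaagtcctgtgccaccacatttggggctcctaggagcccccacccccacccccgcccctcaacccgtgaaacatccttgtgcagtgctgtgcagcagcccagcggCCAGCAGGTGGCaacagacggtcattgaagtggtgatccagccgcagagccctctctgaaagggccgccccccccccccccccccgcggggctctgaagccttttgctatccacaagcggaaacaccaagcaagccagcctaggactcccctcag
The first 4 of these windows lay in resting peaks that an NMDA peak overlapped, and that of Chrna1os in a peak without one. The window of Gm26802, with 45.7% G+C, was the poorest of the 5 in G+C but held 14 CpG dinucleotides, and its ratio of observed to expected CpG was 0.899. Chrna1os, with 62.0% G+C, held 9 CpG and had a ratio of 0.331. The CTCF core matches are CCACCAGATGGC in Gm30771, 57 bases before the start, CCAGCAGATGGC in Tbx3os2, 117 bases before it, and CCAGCAGGTGGC in Chrna1os, 105 bases before it.

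The 15 strongest resting peaks at noncoding ends all lay nearest to lncRNAs. The strongest resting peak covered 668 bp on chromosome 5 at 130853293 to 130853960, at the far end of the lncRNA Gm40337 and 7.30 kb from Caln1, which encodes a neuronal calcium-binding protein. Its values were 101 and 69.3 in the replicate columns, a strength of 170, and it ranked 12 in the whole resting list. The NMDA peak over it had unlike columns, 39.2 and 5.82. The next lay at the far end of Gm40715 (chromosome 10, 79924892 to 79925777), 1.25 kb from the kisspeptin receptor gene Kiss1r, with 95.4 and 72.8 in the columns and a strength of 168. At the far end of Gm11419, 28.0 kb from the acid-sensing channel gene Asic2, the columns held 59.6 and 85.5. Both columns were high at each of these sites, and either one could be the higher.

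Zfp286os, a transcript named for the strand opposite to the zinc finger gene Zfp286, had a resting peak with a strength of 140 over its start (columns 69.9 and 70.0), inside Zfp286. LOC115487808, inside the ubiquitin ligase gene Marchf10, had a peak with a strength of 134 (62.1 and 71.8). Gm31125 is 0.884 kb long and its peak of 1806 bp reached both ends, with a strength of 119 and unlike columns of 84.1 and 34.6. Gm40147, 6.94 kb from the proneural factor gene Neurog2, had 118, and Gm34880, 1.15 kb from the acid-sensing channel gene Asic1, had 112. These 2, with Gm34489 (107), were the 3 of the 15 strongest that no NMDA peak overlapped. The other 12 did overlap one. They included 1700003M07Rik (111), Gm39606 (107), Gm30771 (106), with its peak 36.6 kb from the cyclin E gene Ccne1, and 1700028E10Rik (106), with its peak inside Stard13. The peak at the start of 9530052E02Rik (106) lay inside Irs2, a gene for an adaptor of insulin signalling. Distances to coding genes are from the peak midpoint to the nearest coding gene end.

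Of the 100 strongest peaks of the resting list 8 were at noncoding ends, and of the 500 strongest 41. Across all 657 peaks the strength ran from 16.8 to 170 with a median of 31.7, and the width had a median of 655 bp. The column medians were 15.5 and 14.9. Across these peaks, which share their 2 pairs of libraries and passed a filter on both columns, the columns had a Spearman correlation of 0.47 (n = 657).

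**Figure D1:**
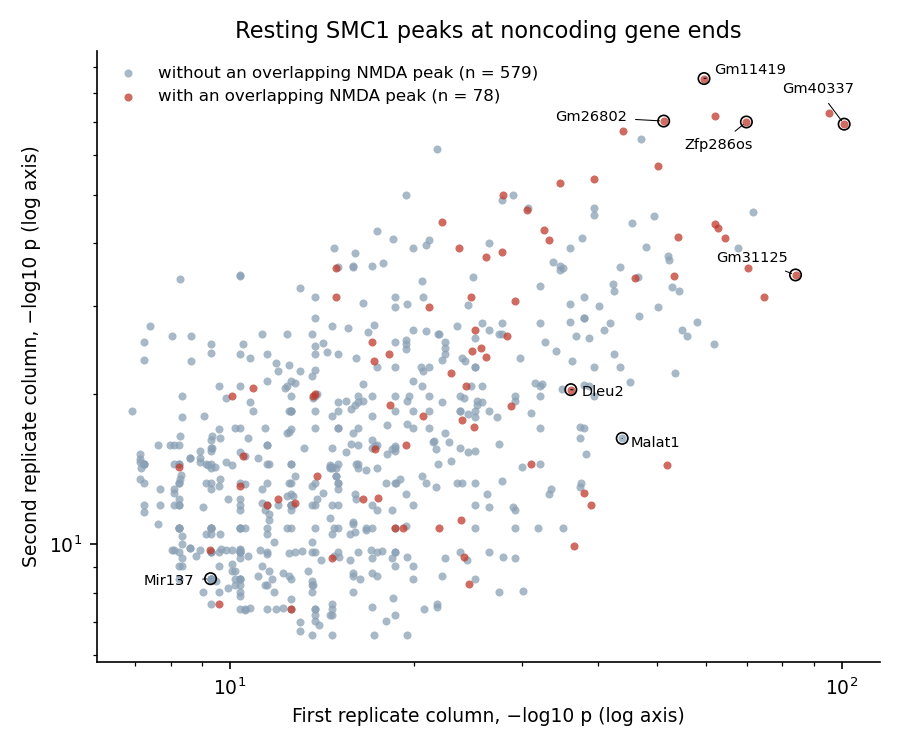
Each point is 1 resting SMC1 peak at a noncoding gene end, with its −log10 p in the first replicate column on the x axis and in the second on the y axis, both log axes. Red points are the 78 peaks overlapped by an NMDA peak and grey-blue points the 579 others, and ringed points carry the name of the nearest noncoding gene; 12 of the 15 strongest peaks, towards the upper right, are red.

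An NMDA peak overlapped 78 of the 657 peaks at noncoding ends (11.9%, exact 95% interval 9.50 to 14.6%), close to the 10.7% of all resting peaks. This share lay between those of the resting peaks most like them. At protein-coding gene ends it was 639 of 2910 peaks (22.0%, 20.5 to 23.5%), and more than 1 kb from every gene end 598 of 8776 (6.81%, 6.30 to 7.36%). By two-sided Fisher's exact tests over peaks, adjusted by Benjamini-Hochberg over 6 tests, noncoding ends differed from protein-coding ends (odds ratio 0.479, 95% interval 0.367 to 0.618, adjusted p = 2.57e-09) and from peaks away from ends (odds ratio 1.84, 1.41 to 2.37, adjusted p = 7.87e-06). Peaks are not replicates of a condition, so these p-values describe the lists. The difference from protein-coding ends was −10.1 percentage points, and it was −4.93 with a 500 bp window, −17.0 among peaks stronger than the list median, and not called when genes with predicted names (Gm or LOC and a number) were left out (19.2% of 182 peaks overlapped, −2.73 points, exact test, adjusted p = 0.459). The difference from peaks away from ends, 5.06 points, passed in 10 of 10 alternatives and ranged from 1.97 with a stricter limit of 0.01 on the irreproducible discovery rate, the authors' measure of agreement between replicates, to 12.4 without the predicted names. The stricter limit was applied to both lists, so NMDA peaks were removed as well. With it the shares were lower in all 3 classes, 4.17% of 384 peaks at noncoding ends, 11.3% at protein-coding ends and 2.20% away from ends.

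Peaks at noncoding ends were more often strong but less often wide than peaks at protein-coding ends, and more often wide than peaks away from gene ends. A strength above the list median was reached by 348 of the 657 (53.0%, against 50.0% of all resting peaks), by 38.9% at protein-coding ends and by 53.4% away from ends. The odds ratio was 1.77 against protein-coding ends (1.48 to 2.10, adjusted p = 2.24e-10, Fisher's exact test) and 0.983 against peaks away from ends (0.836 to 1.16, adjusted p = 0.839, same exact test). Without the predicted names the first difference was not called (44.0% against 38.9%, exact test, adjusted p = 0.221) and the second was (44.0% against 53.4%, exact test, adjusted p = 0.0196). A width above the list median of 644 bp was reached by 337 of the 657 (51.3%, against 49.9% of all resting peaks), by 75.5% at protein-coding ends and by 41.2% away from ends. Both differences in width passed by the exact test, with odds ratios of 0.343 (0.286 to 0.410, adjusted p = 6.86e-32) and 1.50 (1.28 to 1.76, adjusted p = 9.92e-07).

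Within the noncoding set, overlap with NMDA peaks went with strength and with width. These splits were made after seeing the data and were not tested. The share was 3.03% of the 165 weakest peaks and 26.8% of the 164 strongest, and 4.24% of the 165 narrowest and 30.5% of the 164 widest. Of the 54 peaks among both the 164 strongest and the 164 widest, 29 were overlapped (53.7%, 39.6 to 67.4%). Overlapped peaks had a median strength of 49.6 and a median width of 1123 bp, the others 29.5 and 621 bp. The comparison with the other classes was repeated among peaks above the median width, a choice made after seeing the data, and 19.6% at noncoding ends, 25.9% at protein-coding ends and 12.5% away from ends were overlapped (exact tests, adjusted p = 0.0149 and 0.000736). Among peaks stronger than the list median the shares were 17.8%, 34.8% and 10.2% (exact tests, adjusted p = 1.54e-09 and 3.74e-05).

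**Figure D2:**
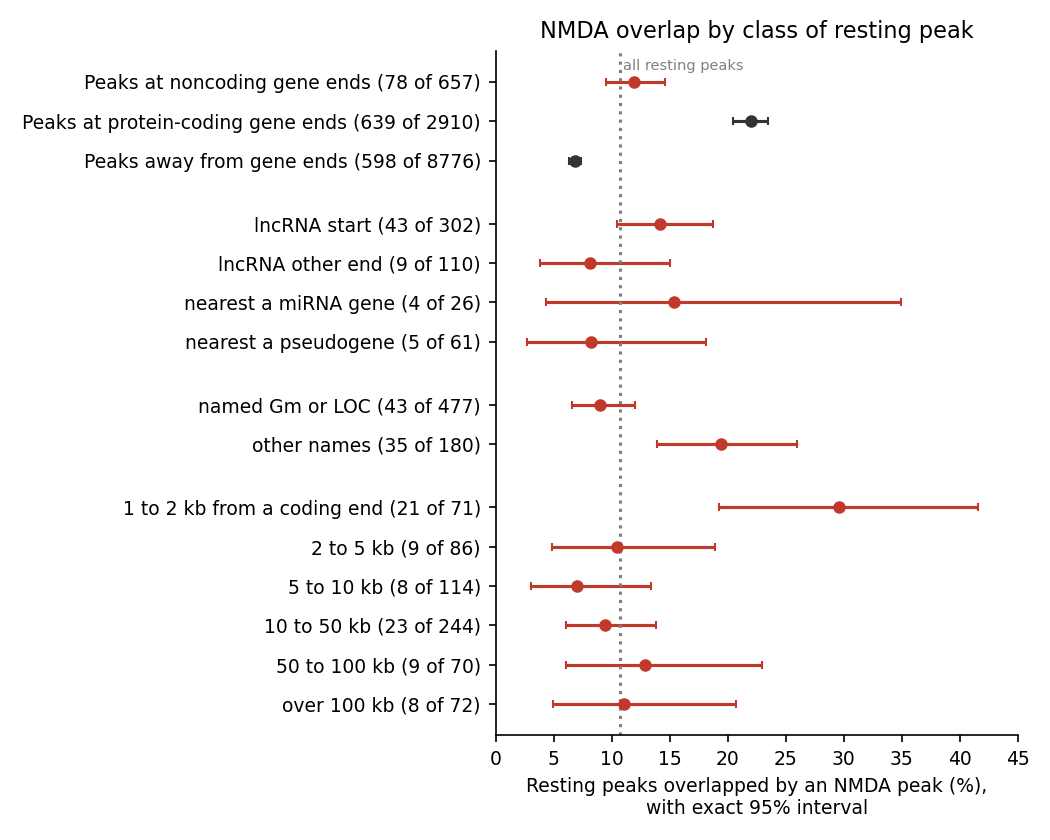
The x axis gives the percentage of resting peaks overlapped by an NMDA peak, with exact 95% intervals, for peaks at noncoding ends and subsets of them (red) and for the other classes of resting peak (black). The dotted line marks the 10.7% of all resting peaks; peaks 1 to 2 kb from a coding gene end (29.6%) and peaks at genes with names other than Gm or LOC (19.4%) lay to its right.

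Of the overlapped peaks, 3 are described here because they sat at noncoding genes beside activity-induced transcription factor genes. Their overlap follows from that choice, and how many peaks at noncoding ends lay beside such genes was not counted. The promoter window of Gm26802 lies in a resting peak on chromosome 7 at 19300284 to 19301409, 1.85 kb from the nearest end of Fosb, an AP-1 gene, with columns of 51.2 and 70.3 and a strength of 122. The NMDA peak over it had 10.6 and 8.03, a strength of 18.6. Gm32255 is 39.8 kb long. The resting peak of 1577 bp at its start lay inside Egr2, a zinc finger factor gene, with its midpoint 1.60 kb from the Egr2 end. Its value cannot be assigned to Gm32255 rather than Egr2. This peak had 54.1 and 41.3 (strength 95.4), and the NMDA peak over it had 8.96 and 10.4 (19.4). Junos, named for the strand opposite to Jun, had a weaker resting peak centred 976 bp inside its start and 1.07 kb from the Jun end, with 19.2 and 10.8 (strength 30.0). The NMDA peak there reached from 95049725 to 95054068 on chromosome 4 and had 33.2 and 22.1 (strength 55.4). That stretch is longer than the distance to the Jun end, so its value cannot be assigned to Junos rather than Jun. Within the resting list the peaks at Gm26802 and Gm32255 were far above the median strength of 30.2 and that at Junos was near it. Within the NMDA list the long peak reaching Junos was above the median of 23.0 and the other 2 were below it. Values are not compared between the lists, since depths are unknown.

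The 78 overlapped peaks were met by 75 NMDA peaks. These had a median strength of 23.6, against 23.0 for all 1684 NMDA peaks, and a median width of 1048 bp. Their columns had medians of 14.0 and 10.1. The strongest of them had 203 (columns 98.6 and 104) and covered 3 resting peaks on chromosome 17, at the 18S ribosomal pseudogene Rn18s-rs5 and the adjoining lncRNA AY036118. Ribosomal sequence is present in many copies that share reads, so the value at this site is uncertain. Without its 3 peaks 75 of 654 were overlapped (11.5%). The next highest NMDA strength at a noncoding end with a resting peak was 57.6, at 1700028E10Rik.

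Most of the peaks lay at lncRNA genes. The nearest noncoding gene was a lncRNA for 538 of the 657 peaks, a pseudogene for 61, a miRNA gene for 26, a transcribed pseudogene for 10, a snoRNA gene for 10 and a small nuclear RNA (snRNA) gene for 9. An antisense RNA, a guide RNA and a miscellaneous RNA gene accounted for 1 peak each. Counted by gene, 670 of 27667 annotated noncoding genes had such a peak (2.42%). The share was 4.26% of lncRNA genes, 2.12% of miRNA genes, 1.10% of small nuclear RNA genes, 0.896% of snoRNA genes and 0.653% of pseudogenes. Noncoding genes with a resting peak but a coding end within 1 kb do not count here: with them 1068 genes had a resting peak at an end. NMDA peaks overlapped 64 of the 538 lncRNA peaks (11.9%), 4 of 26 at miRNA genes (15.4%, 4.36 to 34.9%), 5 of 61 at pseudogenes (8.20%, 2.72 to 18.1%) and 0 of 10 at snoRNA genes (0 to 30.8%). These intervals overlap, and differences between biotypes were not tested.

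The strand of a lncRNA was known only where RefSeq's promoter table holds the gene, so the counts by end cover those genes alone. Among them, 302 lncRNA peaks lay within 1 kb of a start, 110 within 1 kb of the other end and 11 of both. For 115 no strand is given. Start peaks had a median width of 720.5 bp and were overlapped by an NMDA peak in 43 cases (14.2%, 10.5 to 18.7%). Peaks at the other end had a median width of 626.5 bp, a median strength of 31.6 against 30.3 at starts, and 9 overlaps (8.18%, 3.81 to 15.0%). The intervals overlap and the difference was not tested. Over 2 kb from a coding end, 30 of 267 start peaks (11.2%) and 8 of 99 at the other end (8.08%) were overlapped. Of 311 lncRNA peaks within 1 kb of the start of their nearest gene 142 had a midpoint within 250 bp of it (45.7%), and the fullest stretch was the 250 bp just inside the gene, with 97. Overlap with NMDA peaks was 14.8% within 250 bp and 14.2% further out.

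**Figure D3:**
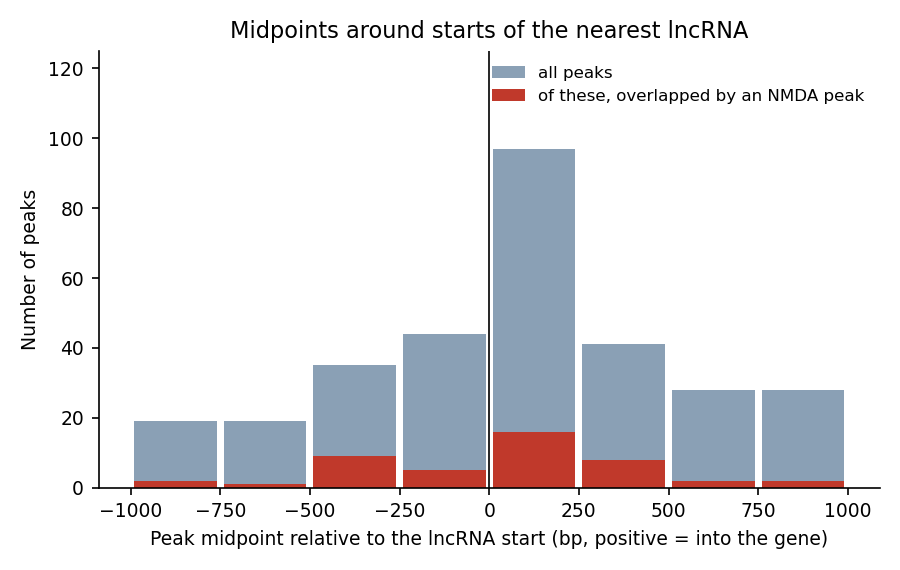
The x axis gives the position of the peak midpoint relative to the start of the nearest lncRNA in bins of 250 bp, positive into the gene, and the bar height the number of resting peaks in each bin (311 in all), with those overlapped by an NMDA peak in red. The bin from 0 to 250 bp was the fullest, with 97 peaks, 16 of them overlapped.

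The share of overlapped peaks was highest next to coding genes, though bins of distance were not tested against each other. The nearest protein-coding end was 1 to 2 kb away for 71 peaks, and 21 of these were overlapped (29.6%, 19.3 to 41.6%). These 71 were also wide, with a median of 986.0 bp. Between 2 and 5 kb the share was 10.5% of 86 peaks, with a median width of 674.5 bp, and beyond 100 kb 11.1% of 72. The median distance was 14.6 kb. Among peaks more than 2 kb from every coding end, 9.73% of 586 at noncoding ends and 5.95% of those away from ends were overlapped (Fisher's exact test, adjusted p = 0.000825). The midpoint lay inside a protein-coding gene for 204 of the 657 peaks, with a median strength of 27.9, against 33.4 for the other 453.

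The peaks were also split by the kind of gene name, and this split was not tested. RefSeq gives names of the form Gm or LOC and a number to predicted and little studied genes, and 477 peaks lay nearest to such a gene. They were overlapped in 43 cases (9.01%), and the 180 peaks at other genes in 35 (19.4%). The median strengths were 32.8 and 28.4 and the median widths 629.0 and 745.0 bp, so by their medians the peaks at genes with other names were wider and weaker. Names with the suffix Rik, given to transcripts of the RIKEN cDNA collection, made up 101 of the 180, with 17.8% overlapped.

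Transcripts named for the strand opposite to or overlapping a coding gene had 13 peaks, 3 of them overlapped, at Zfp286os, Tbx3os2 and Junos. That is 23.1% (5.04 to 53.8%), beside 11.9% of all peaks at noncoding ends, and the difference was not tested. Tbx3os2 starts 6.44 kb from the T-box factor gene Tbx3 and had 33.3 and 40.6 at rest (strength 73.9) and 19.4 and 6.09 after NMDA (25.5). Chrna1os, 4.32 kb from the acetylcholine receptor subunit gene Chrna1, had 27.9 and 48.8 (strength 76.7) and no NMDA peak. The remaining 9 were Pard3bos1 (41.2), Kcnd3os (34.5), inside the potassium channel gene Kcnd3, Rab10os (33.8), Sox6os (30.7), Hoxd3os1 (26.5), Sox1ot (25.5), Parvaos (25.0), Bach2os (22.2) and Zfp335os (19.2). All 9 were without an NMDA peak.

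Of 6 lists of known noncoding genes, 11 of 95 genes found in the annotation had a peak of this class. The share was 2.42% of all noncoding genes, 4.26% of lncRNA genes and 2.12% of miRNA genes. The lists were chosen with earlier results of these data known, and the difference was not tested. Of 13 imprinted or X-inactivation genes 2 had one. Tsix, the antisense partner of Xist, had unlike columns of 15.0 and 35.9 (strength 50.9) on the X chromosome at 103483947 to 103484631. That peak lay 668.5 bp from the end of Tsix with the higher coordinate, its strand not given, and Gm14861 was also within 1 kb. Ftx, of the X-inactivation centre, had 9.48 and 8.44 (17.9), near the lowest strength of the list. Of 18 nuclear and neuronal lncRNAs found in the annotation 2 had one. Malat1, an abundant nuclear lncRNA, had 43.8 and 16.3 (60.1), 966 bp upstream of its start. Dleu2, a host gene of miRNAs, had 36.1 and 20.4 (56.6) in a peak of 2678 bp over its start, and the NMDA peak over nearly the same stretch had 17.2 and 9.05 (26.3).

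Of 16 host genes of snoRNAs 3 had a peak: Snhg16 with 34.2 and 24.4 (58.6), Snhg7 with 11.4 and 17.1 (28.6) and Snhg5 with a strength of 24.3. Snhg5, the weakest of the 3, was the one with an NMDA peak (19.6). Snhg18 also had a resting peak at an end, left out of this class because a coding end lay within 1 kb. Of 12 miRNA host genes 1 had a peak, Mir22hg (20.2), and of 13 noncoding genes of the Hox clusters 1, Hoxd3os1. Across the lists, NMDA peaks overlapped the peaks of 2 of the 11 genes, Dleu2 and Snhg5. The share was 11.9% of all peaks at noncoding ends and 10.7% of all resting peaks.

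Among 24 neuronal miRNA genes found, 2 had a peak, Mir124a-3 and Mir137, which encode miRNAs enriched in neurons. Mir137 had 9.30 and 8.54 (strength 17.8) over the hairpin, and Mir124a-3 had 12.8 and 9.65 (22.5) in 1639 bp. Both were weak and without an NMDA peak. Mir219a-1 also had a resting peak at an end, left out of this class because a coding end lay within 1 kb. The strongest peak at a miRNA gene was 822 bp upstream of Mir193a on chromosome 11 at 79710421 to 79711874, with 62.1 and 43.7 (106), and the NMDA peak there had 9.88 and 13.3 (23.2). Mir3086 had 43.4 and 35.9 (79.4), inside the chaperone gene Hspa12a, Mir1893 25.7 and 24.7 (50.4), inside Epc1, a gene for a subunit of a histone acetyltransferase complex, Mir1668 24.2 and 23.3 (47.5), and Mir6391 26.5 and 18.5 (45.0). Of these 4 only Mir1893 was overlapped (24.3). The well-known Mir125b-1 and Mirlet7i had weak peaks, with strengths of 24.6 and 17.6 and no NMDA peak.
RefSeq gives mature sequences for 21 of the 26 miRNA genes. Those of the strongest site and of 3 miRNAs known from neurons are shown, with the seed (bases 2 to 8) in capitals. The 35 mature sequences held 35 different seeds, so no seed was shared.
mmu-miR-193a-3p: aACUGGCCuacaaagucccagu
mmu-miR-193a-5p: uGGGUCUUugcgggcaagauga
mmu-miR-137-3p: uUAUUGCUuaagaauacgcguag
mmu-miR-125b-5p: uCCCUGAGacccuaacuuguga
mmu-let-7i-5p: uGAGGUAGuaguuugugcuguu

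NMDA peaks overlapped 5 of 61 peaks at pseudogenes, 2 of 10 at transcribed pseudogenes, 1 of 9 at snRNA genes and 0 of 10 at snoRNA genes, beside 11.9% of all peaks at noncoding ends; the differences were not tested. The strongest pseudogene peaks were at Gm3619 (84.9), Gm5614 (75.5), Gm5735 (70.8), Gm7986 (69.3) and Gm5119 (54.4), of which Gm5119 had an NMDA peak (19.7). At transcribed pseudogenes 4632415L05Rik led with 28.0 and 50.0 (78.0) and an NMDA peak of 27.3, followed by 2610005L07Rik (54.3), Gm6525 (41.5), Pisd-ps2 (35.4) and Gm9385 (32.9), all without one. The snRNA sites were led by Rnu2-10 (66.0), a copy of the spliceosomal U2 RNA, then Gm24204 (59.6), Rnu3a (50.7), Gm25313 (37.1) and Gm24424 (33.7). Rnu3a, a gene of the nucleolar U3 RNA, had 14.9 and 35.7 at rest and was the 1 of the 9 with an NMDA peak (18.3). At snoRNA genes Gm23596 (44.7), Gm22676 (44.4), Gm26225 (42.7), Gm25129 (42.3) and Gm25726 (34.2) led. Copies of these genes elsewhere in the genome can share reads, which makes their placement uncertain.

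The promoter windows inside these peaks were richer in CpG and in the CTCF core motif than noncoding promoters at large. RefSeq gives promoters for 426 of the 670 genes, and 148 windows of 139 genes fell wholly inside one of 138 peaks. Their median G+C was 58.8% and their median ratio of observed to expected CpG 0.616, against 48.3% and 0.245 over 11588 lncRNA windows. The 38 windows in peaks with an NMDA overlap had 63.3% and 0.738, and the 110 in peaks without one 55.5% and 0.526. A ratio above 0.6 was found in 84.2% of the former and 41.8% of the latter. This split was not tested, and over the whole set the overlapped peaks were also wider (median 1123 bp against 621 bp). Protein-coding windows inside resting peaks at protein-coding ends were higher still, with 66.0% and 0.844 (n = 1473).

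The CTCF core motif, searched on both strands, is CC, 3 bases of any kind, AG, 2 of any kind and GGC. It was found in 50 of the 148 windows (33.8%), against 6.28% of lncRNA windows, 8.61% of all 32851 windows and 21.6% of protein-coding windows inside resting peaks. The motif was present in 10 of the 38 windows with an NMDA overlap (26.3%) and in 40 of the 110 without one (36.4%). The CRE motif (TGACGTCA, the same on both strands) was found in 1 window (0.676%, against 1.79% of all windows), and the AP-1 motif (TGANTCA, either strand) in 7 (4.73%, against 7.81%). None of the 3 motifs contains another. A match says only that these letters occur, and windows of one gene can overlap each other. Base composition differs between these groups of windows, and its part in the motif shares was not tested.

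**Figure D4:**
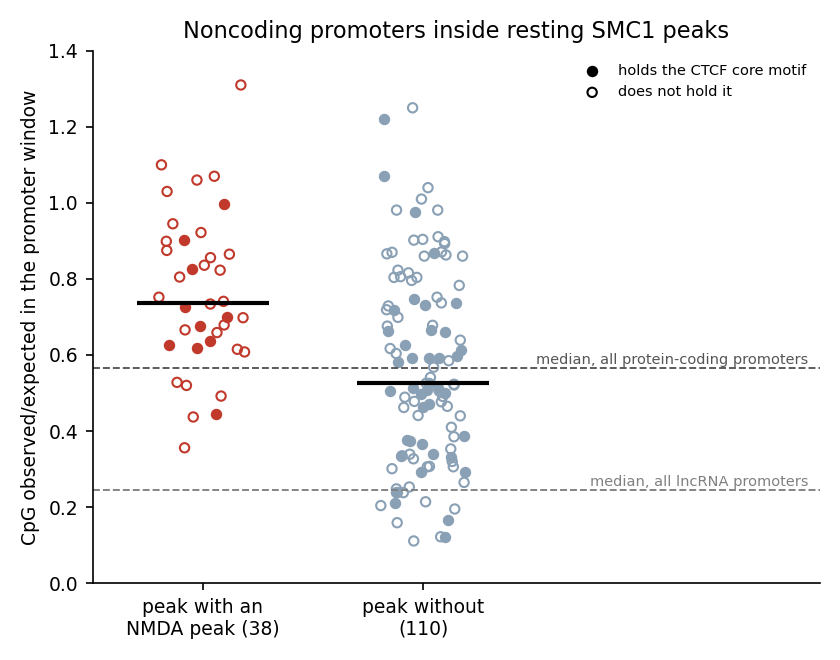
The y axis gives the ratio of observed to expected CpG in each of the 148 noncoding promoter windows inside a resting SMC1 peak, by whether an NMDA peak overlapped that resting peak (x axis); filled points hold the CTCF core motif and thick bars are medians. The medians were 0.738 and 0.526, against dashed lines at the medians of all lncRNA promoters (0.245) and all protein-coding promoters (0.567).

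At the limits of the rule, the peaks just inside the noncoding window lay 994.0 to 995.5 bp from the ends of Gm51473, Gm20167 and Gm24998, with strengths of 25.3, 34.1 and 19.1. Those just outside lay 1004.0 to 1006.0 bp from Gm52569, Gm30699 and Gm10146, with 53.9, 19.1 and 27.0. On the coding side, the closest peaks kept were at Kcnd3os, 9130213A22Rik and 2900079G21Rik, 1013.5 to 1036.5 bp from a coding end (34.5, 87.4 and 20.2). The closest left out were at Gm22063, Mir449c and 1700034H15Rik, 983.0 to 993.0 bp from one (19.1, 20.9 and 36.2). The peak at 9130213A22Rik, inside the Notch effector gene Hes7 and within 1 kb of a transfer RNA gene, had an NMDA peak of 28.2.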

How the data were processed

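SMC1 ChIP-seq peaks of resting and NMDA-treated neurons were analysed from 1 deposited list per condition. Per the submitters' processing notes, the reads went through tools that include MACS2, BWA, SAMtools, Trimmomatic and FastQC, on mm10 or GRCm38.p6. Versions, roles and settings are not stated there. Each deposited list has 20 columns in the layout of the irreproducible discovery rate (IDR) tool: the −log10 p of each of the 2 replicates, their sum, which is the strength used here, a score from the IDR, and IDR values on a −log10 scale. No peak exceeded a global IDR of 0.05. The deposited fold enrichment field holds a placeholder. A −log10 p grows with depth, and depth is unknown.

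Gene ends, biotypes and sequences came from RefSeq tables of GRCm38.p6 (49997 genes). Overlap meant at least 1 bp. Intervals are exact Clopper-Pearson 95% intervals for shares and exact conditional intervals for odds ratios, and cover counting error over peaks only. Fisher's exact tests (SciPy 1.17.1) were two-sided, adjusted by Benjamini-Hochberg over 6 tests, and called at 0.05. The assignment of peaks to classes and the exact tests were checked on simulated data, and the other steps were not. The labels call the replicates biological; p-values describe the lists.

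The members and lists were chosen with earlier results of these data known. Named by rule were the 15 strongest peaks, the 10 strongest overlapped ones, the 5 strongest per biotype with 5 or more, peaks at listed genes, the strongest os or as transcripts (up to 15), and 3 on each side of each limit. Gm32255, Mir125b-1, Mirlet7i, Sox1ot and AY036118 were chosen after their values were seen. Peak sequences beyond the promoter windows were not used here.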

Additional observations from a re-analysis of the deposited data

How the results depend on the processing

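The share overlapped by NMDA peaks stayed above that of peaks away from gene ends, past the threshold, in 10 of 10 alternatives (1.97 to 12.4 percentage points, 5.06 as reported), and both width differences kept their calls in 5 of 5. Against protein-coding ends the overlap call was kept in 8 of 9 alternatives (differences from −17.0 to −2.73 points) and the strength call in 6 of 7 (5.02 to 15.5 points). Without Gm and LOC gene names 182 peaks were left, the overlap difference from protein-coding ends was −2.73 points and no longer called (exact test, adjusted p = 0.459), the strength difference was 5.02 points and no longer called (adjusted p = 0.221, exact test), and the strength difference from peaks away from ends became −9.45 points and was called (exact test, adjusted p = 0.0196). Where only peaks with a global IDR of at most 0.01 were used, 384 peaks were left and that last difference turned to 3.86 points, against −0.439 as reported; neither was called. The cause was not tested. With 1 replicate column alone, leave-one-out strength differences were 6.57 to 12.9 points from protein-coding ends and −1.27 to −0.621 from peaks away from ends. The alternatives restricted to wide peaks and to peaks over 2 kb from a coding end were chosen after seeing the data. No paired analysis was possible because each condition has 1 list that joins both replicates, with no replicate numbers on its columns. Replicates could not be left out of the lists themselves. Unknown depth limits every comparison of strength between the lists.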

Other observations

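NMDA peaks with no resting peak under them were also found at noncoding ends. Under the same rule of position 96 NMDA peaks lay at such ends, and 17 of them overlapped no resting peak (17.7%, against 24.2% of all NMDA peaks). The strongest were at the lncRNAs A330040F15Rik (27.1), A630026N12Rik (26.6), 9330151L19Rik (25.8) and 5930403L14Rik (24.7), the last 1.60 kb from Prdm16, a zinc finger factor gene. The miRNA gene Mir9-2, one of the genes for the neural miRNA miR-9, had an NMDA peak with 10.4 and 10.1 in the columns (20.5) on chromosome 13 at 83737824 to 83739268, and none at rest. These sites were chosen after their values were seen, and whether they differ between conditions was not tested.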
